A study of Rattus norvegicus with 3 samples.

Results

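The carbonic anhydrase genes were examined on 3 arrays of reperfused rat kidney. Members were all genes whose single symbol in the platform annotation was Car followed directly by a number, with every probe set of each gene. The rule found 14 genes of the 14218 with a single symbol on the array, represented by 21 probe sets (sets of short probes that together measure a transcript). They were Car1, Car2, Car3, Car4, Car5a, Car5b, Car6, Car7, Car8, Car9, Car10, Car11, Car12 and Car14, and all 14 carried the same symbol for their gene ID in the RefSeq gene table of the GRCr8 assembly. The family was chosen by the log2 difference of Car3 between the heparin and peptide arrays, which was already known, so its differences are descriptions and support nothing further.

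Kidneys came from male Wistar rats of 370 to 508 g, whose age was not stated. In every group the donor kidney had 20 min of warm ischaemia, an average of 17 ± 0.7 h of cold storage in University of Wisconsin solution, and an average of 5 h 43 min ± 21 min of perfusion from a recipient rat's femoral artery (the kind of error is not given). The control group received normal saline at 1 ml/h, the heparin group heparin at 100 U/ml/h, and the peptide group a compound labelled peptide 2, whose sequence derives from the part of the chemokine CCL5 that binds heparin, at 0.5 mg/ml. Each group had 7 recipients, and RNA of 3 kidneys, those of best quality, was pooled in equal amounts for 1 array, so no uninjured kidney and no replicate array enter these comparisons. The study asked whether heparin or the peptide was anti-inflammatory in this model of donation after cardiac death.

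Carbonic anhydrases are zinc enzymes that interconvert carbon dioxide and water with bicarbonate and a proton. In the kidney, cytosolic Car2 and the membrane-anchored Car4 and Car14 serve bicarbonate reabsorption in the proximal tubule, and Car2 also supplies protons and bicarbonate to intercalated cells of the collecting duct. Car3 is a cytosolic isoform with low catalytic activity, abundant in skeletal muscle, fat and male rat liver. Car5a and Car5b act in mitochondria, Car6 is secreted, Car9 and Car12 are transmembrane enzymes known as hypoxia-inducible, and Car8, Car10 and Car11 are related proteins that lack catalytic activity.

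The values are GCRMA log2 expression values, so a difference of 1 is 2-fold. Because each probe set binds with its own efficiency, differences were taken between arrays and never between probe sets. Levels of different probe sets were put together for the median filter and probe set choice below, and for later sums and averages. A probe set was counted as measured where it was at or above the array's median over all probe sets, 4.14 in control, 4.16 in heparin and 4.14 in peptide, and the lowest value on each array was 2.18. A gene was represented by its probe set with the highest mean. In bulk RNA, fewer cells of a type and less RNA per cell cannot be told apart. With 1 array per group no difference has a replicate check or a test. The only internal measure of spread was the gap between 2 probe sets of 1 gene: over 1686 genes with exactly 2 measured probe sets, the gap between their log2 differences had a median of 0.17 and a 90th percentile of 0.56 for heparin minus control, 0.10 and 0.35 for peptide minus control, and 0.17 and 0.54 for heparin minus peptide. The gap reflects probes and summarisation, not variation between kidneys.

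Windows of 250 bases before to 50 after the annotated start were taken from RefSeq (GRCr8) and matched 9 of the 14 genes. Car1, Car2, Car3, Car6 and Car8 had no entry. The windows of Car4 (chr10:70325108-70325407, plus strand) and Car14 (chr2:186138115-186138414, minus strand) are shown because both membrane-bound genes were measured and lower in heparin than in peptide, and that of Car9 (chr5:62558774-62559073, plus strand) because Car9 is the classic hypoxia-inducible member of the family. Each is written 5′ to 3′ on the gene's strand, with matches to ACGTG, the core of one form of the hypoxia response element, or to its reverse complement in capitals.
Car4: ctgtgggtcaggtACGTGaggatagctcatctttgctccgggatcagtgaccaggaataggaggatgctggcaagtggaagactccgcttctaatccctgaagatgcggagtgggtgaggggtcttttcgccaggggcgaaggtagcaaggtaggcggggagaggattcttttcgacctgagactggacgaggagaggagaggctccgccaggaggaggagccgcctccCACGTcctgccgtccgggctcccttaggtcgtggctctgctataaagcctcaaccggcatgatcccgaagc
Car14: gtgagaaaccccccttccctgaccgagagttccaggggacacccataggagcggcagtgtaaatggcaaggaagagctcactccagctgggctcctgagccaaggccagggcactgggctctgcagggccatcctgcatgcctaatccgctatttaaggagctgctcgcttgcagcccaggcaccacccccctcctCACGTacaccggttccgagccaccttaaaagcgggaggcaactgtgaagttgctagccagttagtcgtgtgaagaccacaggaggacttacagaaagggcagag
Car9: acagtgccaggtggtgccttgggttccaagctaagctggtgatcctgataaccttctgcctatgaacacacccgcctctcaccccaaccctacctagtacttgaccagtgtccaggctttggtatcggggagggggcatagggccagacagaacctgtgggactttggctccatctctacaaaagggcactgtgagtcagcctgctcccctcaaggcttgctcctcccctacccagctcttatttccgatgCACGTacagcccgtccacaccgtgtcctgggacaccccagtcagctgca
Both strands were searched for ACGTG after the windows had been read. Car4 held 2 matches, the first base of each at -237 and -21 from the annotated start, Car14 held 1 at -54 and Car9 held 1 at 1. Car12 also held 2, and the windows of Car5a, Car5b, Car7, Car10 and Car11 held 0. The match was thus in 4 of 9 member windows, and in 19.3% of 33469 RefSeq windows of the same length. The TATA box letters TATAAA were found in the Car4 window only among the 9 (14.2% of all windows). Their first base was at 19, after the annotated start. The GC box letters GGGCGG were found in the windows of Car7, Car10 and Car12 (33.1% of all windows). None of these matches overlapped another, and a match is a string of letters, not a measured binding site.

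Of the 14 genes, 6 were measured on all 3 arrays: Car2, Car3, Car4, Car5b, Car8 and Car14, with 9 measured probe sets. Car6 was above the median in control only, and the remaining 7 genes were below it on every array. Of the 11 probe sets below the median on all arrays, 8 had exactly the same value on all 3, and 5 lay within 0.01 of the lowest value. Equal values can come from the summarisation and do not show equal abundance, at this level or above the median. Among all measured genes, 30.1% were identical in heparin and control, 39.5% in peptide and control, and 29.5% in heparin and peptide.

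**Figure D1:**
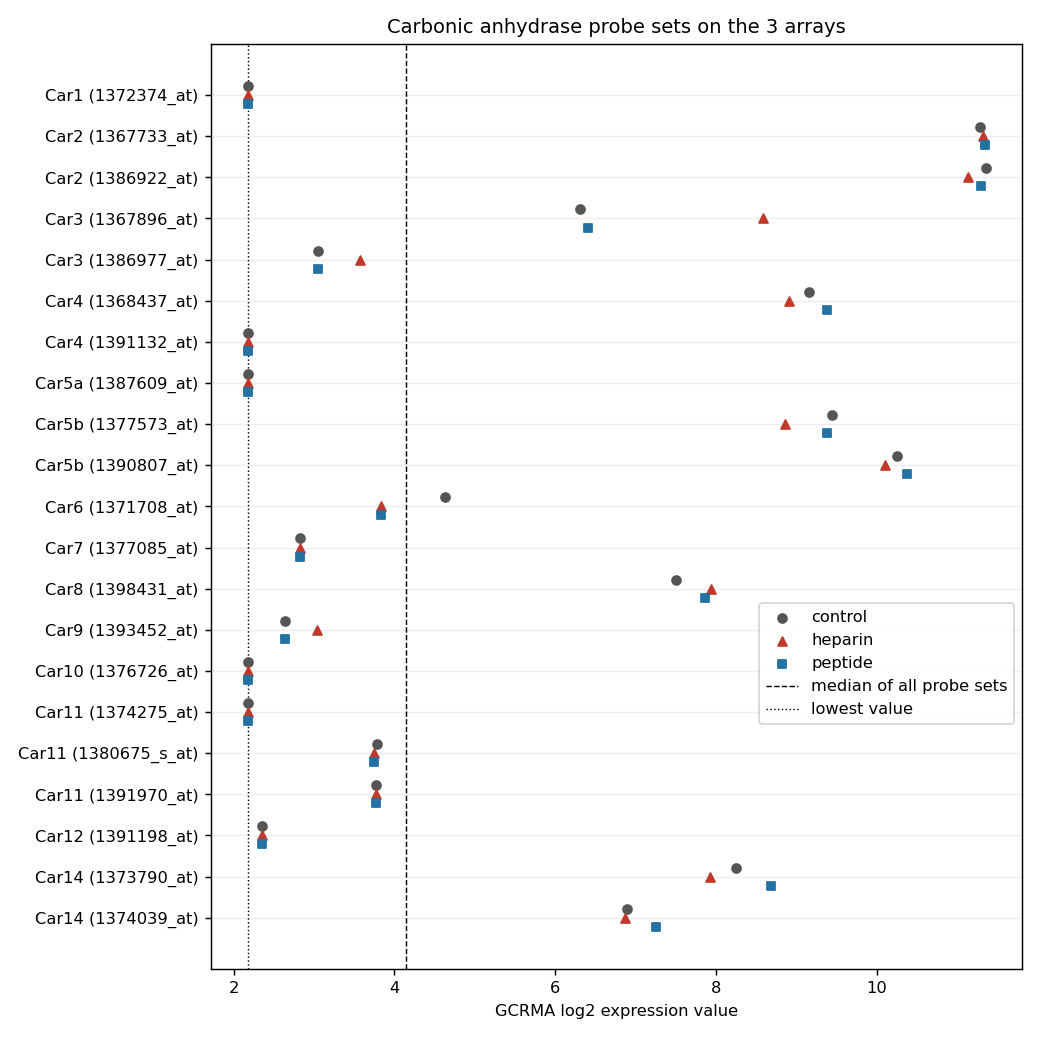
GCRMA log2 expression values of the 21 carbonic anhydrase probe sets (1 row each, gene and probe set named on the left) on the control, heparin and peptide arrays, with the mean of the 3 array medians (dashed) and the lowest value (dotted). Values compare within a row only; the Car3 probe set 1367896_at reads 8.59 in heparin against 6.31 in control and 6.41 in peptide, while the 3 points of most other rows lie close together.

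Car3 had the widest separation of arrays in the family. Its measured probe set, 1367896_at, read 6.31 in control, 8.59 in heparin and 6.41 in peptide. The heparin array stood alone, and control and peptide differed by 0.10. Heparin was higher than control by 2.27 (4.83-fold) and higher than peptide by 2.18 (4.52-fold). Among 9236 genes measured in heparin and control, 10 had a larger positive difference, since Car3 ranked 11 from the top, and it ranked 5 of 9240 for heparin minus peptide. The second probe set, 1386977_at, lay below the median on all arrays, at 3.05 in control, 3.57 in heparin and 3.05 in peptide. It too was higher in heparin, by 0.52, at a level close to the lowest value of the array. Averaging both probe sets gave 1.40 for heparin minus control and 1.35 for heparin minus peptide, still above 2-fold. The second probe set alone was 1.43-fold higher in heparin than in either other array, so the 2-fold average rests on the first. The gap between probe sets given above was taken over measured probe sets only and does not cover this pair.

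Car3 was the 1 measured member of 6 at least 2-fold apart in heparin against control, where 1.81% of all measured genes were (1.06% higher and 0.747% lower). It was likewise the 1 of 6 in heparin against peptide, where 1.13% of genes were (0.281% higher and 0.844% lower). In peptide against control 0 of 6 members were at least 2-fold apart, beside 0.842% of genes. Since Car3 was picked for these values, nothing is read from its share.

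Car3 lies between Car2 and Car1 on rat chromosome 2, with Car13 beyond Car1, in the RefSeq gene order of GRCr8. Car2 lacked the heparin difference of Car3, and Car1 was not measured. The Car2 probe set 1367733_at, for the main cytosolic enzyme of renal tubules, read 11.29 in control, 11.32 in heparin and 11.35 in peptide. Its other probe set, 1386922_at, read 11.36, 11.14 and 11.30. The Car2 differences therefore ran from -0.22 to 0.06 and changed sign between the probe sets for both treatments against control. Car1, the erythrocyte isoform, was at the lowest value, 2.18, on all arrays.

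The membrane-bound enzymes Car4 and Car14 were lower in heparin and higher in peptide than in control. Car4, anchored by a lipid tail on the brush border, read 9.15 in control, 8.91 in heparin and 9.38 in peptide with 1368437_at. Its heparin value was 0.24 below control and its peptide value 0.23 above, and its other probe set was at the lowest value throughout. Car14, a transmembrane enzyme of the same segment, read 8.25 in control, 7.93 in heparin and 8.68 in peptide with 1373790_at. With 1374039_at it read 6.89, 6.87 and 7.26.

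Both Car14 probe sets placed peptide highest and heparin lowest, but they shared only the size of the peptide difference. Peptide minus control was 0.43 and 0.37, a gap of 0.06, whereas heparin minus control was -0.32 and -0.02, a gap of 0.30. Heparin minus peptide was -0.75 with the first probe set, outside the 5th to 95th percentile of all measured genes (-0.56 to 0.33), and -0.39 with the second, inside it. For peptide minus control that range was -0.26 to 0.37, with the representing Car14 probe set above it and Car4 (0.23) inside. Neither gene reached 2-fold in any comparison.

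Car5b, a mitochondrial carbonic anhydrase that supplies bicarbonate to biosynthesis, was lower in heparin on both probe sets. It read 10.26 in control, 10.10 in heparin and 10.37 in peptide with 1390807_at, and 9.45, 8.86 and 9.38 with 1377573_at. Heparin minus control was -0.15 and -0.58 (0.667 of the control level for the second), a gap of 0.43 between probe sets, and heparin minus peptide was -0.27 and -0.52. Peptide minus control had opposite signs, 0.12 and -0.07. The other mitochondrial isoform, Car5a, known chiefly from liver, was at 2.18 on all arrays.

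Car8, a non-catalytic relative known as a binding partner of the inositol trisphosphate receptor, was higher in both treated pools. It read 7.50 in control, 7.93 in heparin and 7.87 in peptide, differences of 0.43 and 0.37, with 1 probe set. Each lay just beyond the 95th percentile of all measured genes, which was 0.40 for heparin minus control and 0.37 for peptide minus control. Both differences share the control array, so they are not separate evidence. Heparin and peptide differed by 0.06.

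Taking 1 value per gene, 3 of the 6 measured members were higher and 3 lower in heparin than in control (median -0.06), while 25.8% of all measured genes were higher, 44.2% lower and 30.1% identical. In peptide, 6 of 6 were higher than in control (median 0.17), where 32.01% of all genes were higher and 28.5% lower. The 6 of 6 rests on the choice of probe set, since the other probe sets of Car2 and Car5b were lower. In heparin against peptide 2 were higher, Car3 and Car8, and 4 lower (median -0.15), with 26.8% of all genes higher and 43.7% lower. The median over all measured genes was 0.00 in each comparison.

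**Figure D2:**
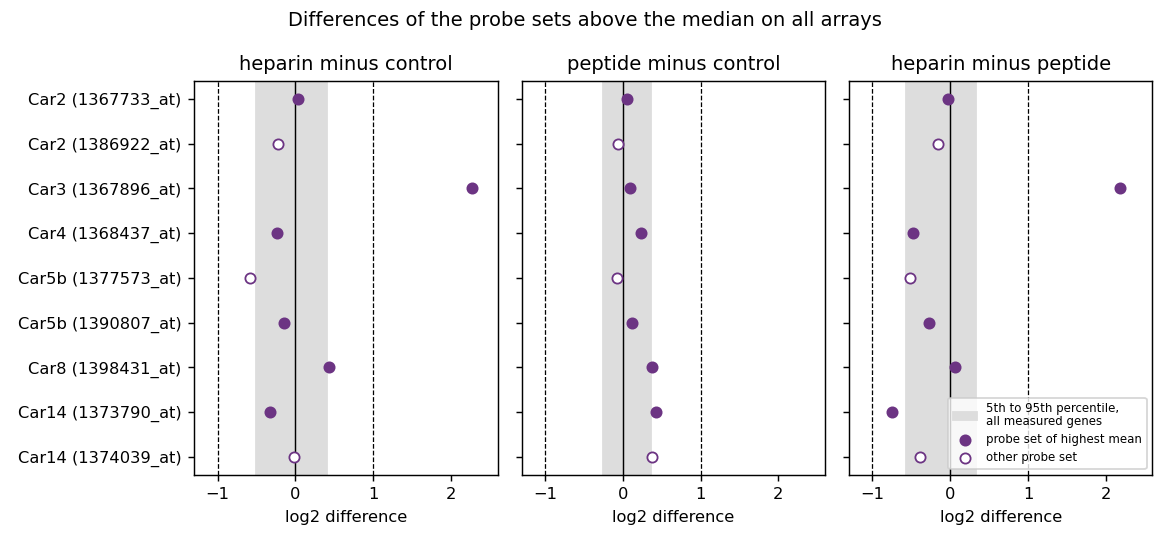
Log2 differences of the 9 carbonic anhydrase probe sets that were at or above the median on all arrays, in the 3 comparisons; filled points are the probe set of highest mean, open points the gene's other probe set, grey bands the 5th to 95th percentile of all measured genes and dashed lines 2-fold. Car3 lies beyond the 2-fold line in both comparisons with the heparin array as first term, at 2.27 and 2.18, and no other point does.

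The members below the median gave little more. Car6, the secreted isoform of saliva, read 4.63 in control and 3.83 in both heparin and peptide. It was thus close to the median on every array, and no fold is given. Car9 read 2.63 in control, 3.03 in heparin and 2.63 in peptide, and Car12 2.35 on all arrays, so neither hypoxia-inducible enzyme was measured. Car7, a cytosolic isoform of brain, was at 2.82 throughout, and Car10 at 2.18. The 3 probe sets of Car11 stayed at 2.18, at 3.77 and between 3.75 and 3.79. Over all 11 probe sets below the median, heparin minus control ran from -0.04 to 0.52, the highest being the second probe set of Car3, and peptide minus control from -0.04 to 0.00.

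A list of hypoxia-inducible transcripts was set beside Car9 and Car12. All 17 of its genes were found and 16 were measured. Of these, 4 were higher and 7 lower in heparin than in control, 7 higher and 4 lower in peptide than in control, and 4 higher and 10 lower in heparin than in peptide. The shares over all measured genes were 25.8% and 44.2%, 32.01% and 28.5%, and 26.8% and 43.7%, so the heparin and control counts matched the background. In all 3 comparisons 0 of 16 reached 2-fold, beside 1.81%, 0.842% and 1.13% of all genes. Vegfa, the endothelial growth factor, read 10.76, 10.75 and 10.76 in control, heparin and peptide. The glycolytic enzyme Pgk1 read 13.75 on every array. P4ha1, a collagen prolyl hydroxylase subunit, had the highest difference in heparin against control (0.26), and Ankrd37 the highest in peptide against control (0.39). The list's median was 0.00 against control in both treated pools, and all 3 pools had been ischaemic. In each comparison with control, 5 of the 16 genes had identical values, which do not show equal abundance.

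Carbonic anhydrases work with transporters of bicarbonate, protons and ammonia, and 2 lists covered these partners. Of the proximal list 11 of 13 genes were found (Nherf1 by a synonym) and 10 were measured. In heparin 6 were lower and 3 higher than control (median -0.11), in peptide 1 was lower and 9 higher (median 0.06), and between heparin and peptide 9 were lower and 1 higher in heparin (median -0.21). None was 2-fold apart. Some of the counted differences were close to 0. Peptide minus control was 0.0004 for Slc4a4, 0.0024 for Slc9a8 and 0.0057 for Slc4a2. Heparin minus peptide was -0.0024 for Slc9a8 and -0.01 for Slc38a3. The medians over all measured genes were 0.00. Of all measured genes 44.2% were lower in heparin than in control, 32.01% were higher in peptide than in control, and 43.7% were lower in heparin than in peptide. The shares with identical values were 30.1%, 39.5% and 29.5% in the same order of comparisons.

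Slc9a3, the sodium-proton exchanger of the brush border, read 9.59 in control, 9.29 in heparin and 10.12 in peptide. Nherf1, its scaffold protein, read 11.74, 11.56 and 12.00. Both had the order of Car4 and Car14, with heparin lowest and peptide highest. Slc4a4, the basolateral sodium-bicarbonate cotransporter, read 11.67 in control, 11.06 in heparin and 11.67 in peptide and was thus low in heparin alone. Slc4a7, another sodium-bicarbonate cotransporter, was lower than control in both, by -0.51 in heparin and -0.28 in peptide. The enzymes of ammonia production and gluconeogenesis differed less: Glud1, glutamate dehydrogenase, differed from control by -0.05 in heparin and 0.14 in peptide, and Pck1, phosphoenolpyruvate carboxykinase, by 0.16 and 0.04.

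The intercalated cell list, 12 of 18 genes found and 8 measured, was mixed. In heparin 5 were higher and 2 lower than control (median 0.12), in peptide also 5 and 2 (median 0.06), and 5 were higher and 3 lower in heparin than in peptide (median 0.10). Over all measured genes 25.8% were higher and 44.2% lower in heparin than in control, 32.01% and 28.5% in peptide than in control, and 26.8% and 43.7% in heparin than in peptide. Slc26a4, the chloride-bicarbonate exchanger pendrin, read 9.66 in control, 10.13 in heparin and 9.79 in peptide. The proton pump subunit Atp6v1g3 read 12.80, 13.17 and 12.67. The transcription factor Foxi1, which defines the cell type, was 0.32 higher in heparin than in control. The ammonia channel Rhcg went the other way, at 8.39 in control, 7.74 in heparin and 8.32 in peptide. Slc4a1, the exchanger of acid-secreting cells and of red cells, was identical in control and heparin and 0.35 higher in peptide.

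**Figure D3:**
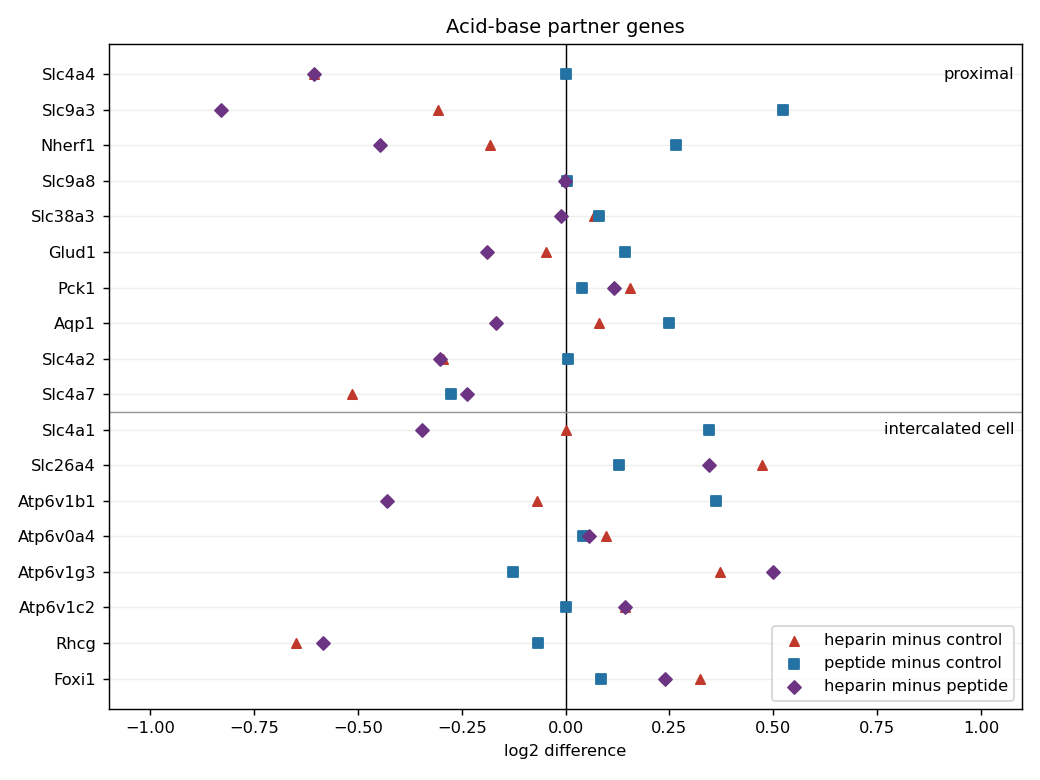
Log2 differences of the 18 measured acid-base partner genes, proximal genes above the grey line and intercalated cell genes below it, for heparin minus control (triangles), peptide minus control (squares) and heparin minus peptide (diamonds). In the proximal group 9 of 10 diamonds lie left of 0, some very close to it and the lowest at -0.83 for Slc9a3. In the intercalated group the diamonds fall on both sides.

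Of the proximal tubule markers, all 14 were measured. Heparin was higher than control for 8 and lower for 4 (median 0.05), beside 25.8% and 44.2% of all measured genes. Peptide was higher than control for 10 and lower for 3 (median 0.10), beside 32.01% and 28.5% of all measured genes. Heparin was lower than peptide for 9 and higher for 2 (median -0.08), beside 43.7% and 26.8% of all measured genes. The log2 of the summed unlogged level of these markers was 16.86 in control, 16.91 in heparin and 16.96 in peptide. That sum rests mostly on a few bright probe sets, among them Kap, which read 15.41 on every array. The largest single difference among these markers was in Slc5a12, a lactate transporter, at 9.16 in control, 8.34 in heparin and 8.90 in peptide, and Slc5a2, a glucose transporter, read 9.64, 9.12 and 9.59. For thick limb and distal markers, 4 of 7 measured genes were lower in heparin than in control, beside 44.2% of all measured genes. The distal transcripts Calb1 (-1.83) and Klk1 (-1.68) were more than 2-fold lower, as were 0.747% of all genes. The other measured genes of the list ran from -0.34 (Slc12a3) to 0.26 (Aqp2). The log2 of the summed level of the list was 15.38 in control, 15.42 in heparin and 15.42 in peptide, carried mostly by Umod. The part of segment composition in the Car4, Car5b and Car14 differences was not tested.

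Because Car3 is abundant in muscle, fat and liver, markers of those tissues were read on the same arrays. Of the muscle list, 22 of 22 genes were found (1 by a synonym), 19 were below the median on all arrays and 14 within 0.01 of the lowest value, among them Ckm, Mb, Actn3 and Tnnt3. The other 3 were Mybpc2, at 4.67 on all arrays, Eno3, just above the median in heparin only (4.16), and Myh1. The representing probe set of Myh1, a fast myosin heavy chain, read 13.04 in control, 14.48 in heparin and 12.17 in peptide. All 5 Myh1 probe sets were highest in heparin, as was Car3, and lowest in peptide. The myosin heavy chain genes Myh2 and Myh4 read 2.18 on all arrays. Whether the Myh1 probe sets read muscle RNA was not tested. The log2 of the summed muscle list level was 13.06, 14.49 and 12.21 in control, heparin and peptide with Myh1, and 7.11, 7.13 and 7.12 without it. Most of the remaining genes lay at or near the lowest value, where equal readings do not show equal abundance. The part of muscle RNA in the Car3 difference was not tested.

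Of the adipocyte list, 16 of 17 genes were found and 11 were below the median on all arrays. Adipoq (2.78 on all arrays), Lep (2.23), Plin1 (2.19 to 2.24) and Cfd (3.06) were all near the lowest value. Fabp4, also a gene of endothelium and macrophages, read 7.74 in control, 8.27 in heparin and 7.22 in peptide. Cidec and Cd36 were lower in heparin than in control, by -0.54 and -0.56. The log2 of the summed adipocyte level was 10.53, 10.45 and 10.49, a sum carried mostly by the widely expressed Pnpla2 and Lpl. The part of fat in the Car3 difference was not tested.

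Of the hepatocyte list, 12 of 14 genes were found and 7 were below the median on all arrays, with Apoa1, Ahsg and Tat at the lowest value. Alb read 4.94 in both control and heparin and 2.77 in peptide. Cyp2c11, a male-specific cytochrome P450 of liver, read 4.58 in control, 6.73 in heparin and 7.48 in peptide. Fgb read 6.76 in control, 6.56 in heparin and 5.81 in peptide. In the same order Apoc3 read 7.49, 7.10 and 7.71, and Hp 8.19, 8.34 and 8.56. The log2 of the summed hepatocyte level was 9.39, 9.51 and 9.75, and without Cyp2c11 it was 9.34, 9.28 and 9.42. Both sums were carried mostly by Hp and Apoc3. The part of liver transcripts in the Car3 difference was not tested. For red cell transcripts, which would carry Car1 and Car2, the log2 of the summed level was 15.00, 14.73 and 14.93. Of 5 measured genes, 3 were lower in heparin than in control, beside 44.2% of all measured genes. The haem synthesis enzyme Alas2 differed by -1.13. Hba-a3, matched by a synonym, differed by -0.86, and Gypc, a membrane protein, by 1.00 in the other direction.

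**Figure D4:**
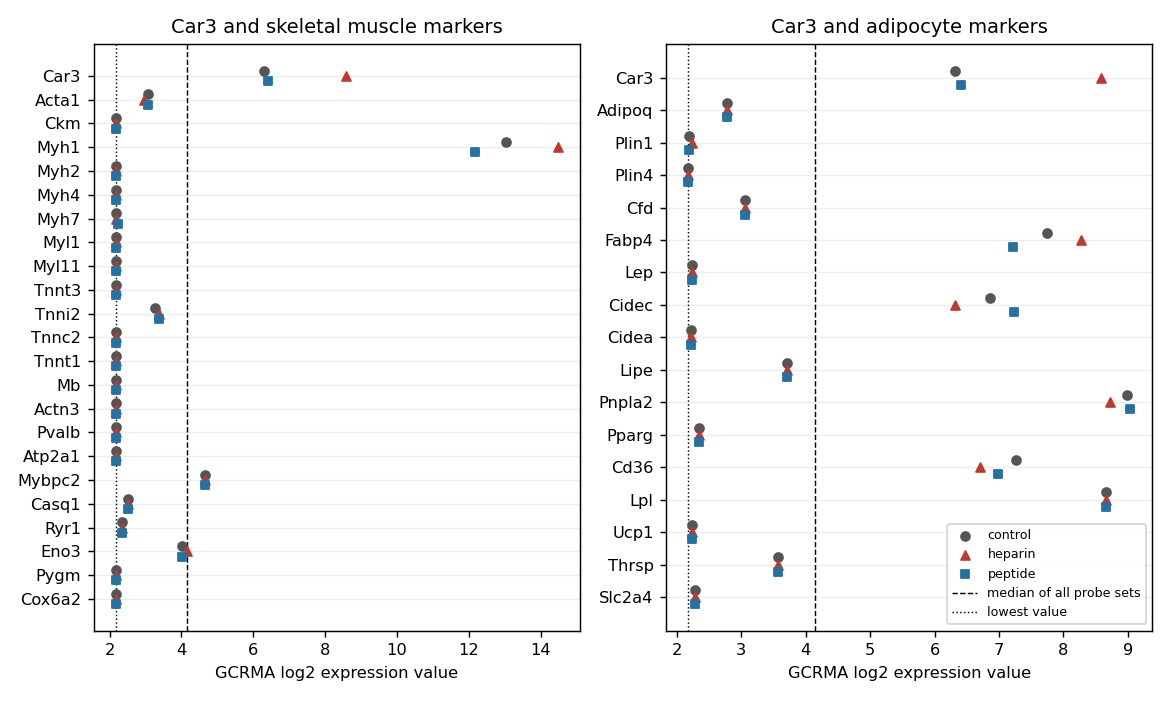
GCRMA log2 expression values of Car3 (1367896_at) with the 22 skeletal muscle markers (left) and 16 adipocyte markers (right) on the control, heparin and peptide arrays; dashed and dotted lines are the mean array median and the lowest value. Car3, Myh1 and Fabp4 read highest in heparin (8.59, 14.48 and 8.27), and Ckm, Mb, Adipoq, Lep and most other markers stay left of the dashed line on all 3 arrays.

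The excess of a 3′ control probe set over the 5′ one was read as a sign of RNA quality. For beta-actin the excess was 2.95 in heparin, 2.33 in control and 2.34 in peptide. In the same order it was 0.32, 0.36 and 0.37 for GAPDH, and 2.18, 2.18 and 2.28 for hexokinase. The part of RNA quality in the heparin differences was not tested. Because RNA was pooled, the share of each kidney in the Car3 value cannot be told apart.

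The 5 genes nearest to Car3 in their pair of differences, heparin minus control and peptide minus control, were sought by Euclidean distance on the log2 scale. The search covered the 9231 genes measured on all 3 arrays, less those named only by a locus number (LOC or RGD followed by digits). Genes so named were left out, so some of them may lie nearer to Car3. Krt15, a basal keratin, was the nearest of those searched, at a distance of 0.72, with 1.59 for heparin and 0.33 for peptide. Runx3, a transcription factor of lymphocytes, followed at 0.83 (1.49 and 0.36), but its other probe set had a heparin difference of 0.00. Psmb8, an immunoproteasome subunit (0.87), Lgals9, a galectin (0.88), and Jchain, the joining chain of polymeric immunoglobulins (0.89), completed the set. Jchain alone among them was lower in peptide than in control (-0.16), and its other probe set also had a heparin difference of 0.00. All 5 had smaller heparin differences than Car3, from 1.42 to 1.71. Likeness over 3 arrays is a description only.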

How the data were processed

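Expression was read on 3 arrays labelled by the Affymetrix protocol, 1 per group, each with pooled RNA of 3 kidneys. The authors deposited 1 log2 value per probe set and array, made with GCRMA per the submitters' processing notes. Its version and settings, and whether arrays were normalized to each other, were not stated. These log2 values were not transformed further. The platform annotation gave a single symbol for 20832 of 31099 probe sets; the 436 with several symbols and the 9831 with none were left unnamed. Each gene was represented by whichever of its probe sets had the highest mean. It was measured in a comparison when both arrays read at least their own median. Log2 differences were taken between arrays, and those of at least 1 (2-fold) were counted. No test was made, because there is 1 array per group, and that number limits the precision. The counting was tested on simulated data.

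The members and lists were chosen with earlier results of these data known. Named were all members, up to 4 measured genes per list with the largest differences, and the 5 genes nearest to Car3. Genes named only by a locus number were left out of that search for the nearest 5. Other list genes were named after their values were seen. Alternatives were quantile normalization, median centring, filters at the 40th and 60th percentile or none, averaging the probe sets of a gene, and adding 32 to the unlogged values. Python 3.11.15, numpy 2.4.6, pandas 2.3.3 and matplotlib 3.10.9 were used.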

Additional observations from a re-analysis of the deposited data

How the results depend on the processing

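The counts of members at least 2-fold apart (1, 0 and 1 in heparin against control, peptide against control and heparin against peptide) were the same under all 7 alternatives. Median centring could not change them, because the median over all measured genes was already 0.00 in each comparison. The filter settings change which genes are counted, not the difference of a gene. Car3 in heparin minus control ran from 1.40 (mean of both probe sets) to 2.34 (quantile normalization), with 1.90 after adding 32, and in heparin minus peptide from 1.35 to 2.24. Car2 changed sign with the mean of its probe sets in both comparisons with control (-0.09 and -0.0018), and with quantile normalization in heparin minus peptide (0.02). No other measured member changed sign. The median of both acid-base lists together was 0.00 in heparin minus control (-0.03 to 0.03 in the alternatives), 0.06 in peptide minus control (0.0057 to 0.08) and -0.18 in heparin minus peptide (-0.19 to -0.0024, the last with no filter). Without a filter the intercalated list's median was 0.00 in each comparison. No paired analysis was possible because each group has 1 array. Signal near the lowest value limits what can be said of Car1, Car5a, Car6, Car7, Car9, Car10, Car11 and Car12.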
